A study of Homo sapiens with 9 samples.

Results

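ABC transporters are proteins that use ATP to carry lipids, drugs, conjugates, peptides or metabolites across membranes, and their human genes fall into subfamilies ABCA to ABCG. Their signals were examined in GM12878, a B-cell line made by transforming the B cells of 1 donor with Epstein-Barr virus. Members were the transcript clusters, the gene-level units of the array, whose single gene symbol was ABC followed by a letter from A to G and a number. There were 39 members among 22011 clusters, each gene with 1 cluster: 12 of ABCA, 7 of ABCB, 9 of ABCC, 3 of ABCD, 1 of ABCE, 2 of ABCF and 5 of ABCG. ABCC13 is a transcribed pseudogene in RefSeq. A further 6 clusters carried an ABC symbol together with other symbols and were not used. Other ABC genes were not analysed here.

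RNA came from 9 cultures, each hybridised to its own Affymetrix Human Exon 1.0 ST array. The groups were 3 untreated cultures harvested at 0 h, 3 cultures after 8 h and 3 after 24 h of 10 µM D,L-sulforaphane (SFN), the isothiocyanate of broccoli as a mixture of both optical forms. The starting density was 900000 cells per ml, and the medium held 15% serum. A vehicle of 0.1% DMSO is named in the treatment protocol, but the control labels read no treatment, and no culture kept for 8 or 24 h without SFN was used, so SFN, any vehicle and time in culture cannot be told apart. All groups share 1 cell line, and the labels do not say how far apart in handling the 3 cultures of a group were, so the p-values measure the spread between these cultures.

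Sulforaphane reacts with KEAP1 and so releases the transcription factor NRF2, which switches on genes for making glutathione and joining it to foreign compounds. Several ABCC proteins, the multidrug resistance proteins, then carry such conjugates out of the cell, and in liver and other tissues some of their genes are known NRF2 targets. Other ABC proteins serve different ends: ABCA1 and ABCG1 pass cholesterol to lipoproteins, ABCD proteins serve peroxisomes and lysosomes, the mitochondrial ABCB proteins serve iron and haem metabolism, and ABCE1 and the ABCF proteins are not transporters but work with ribosomes.

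Of the 39 genes, 1 rose after 8 h of SFN, ABCA9, and 0 fell. After 24 h 0 members passed the test against untreated cells, and 0 passed between 24 h and 8 h. A moderated F-test for any change among the 3 time points also called ABCA9 alone. A call means an adjusted p under 0.05 from limma over all 22011 clusters, a rule that 0.595% of clusters passed at 8 h, 1.62% at 24 h, 0.327% between 24 h and 8 h and 1.35% in the F-test. ABCA9 was 2.56% of the members. At an unadjusted p under 0.05, 4 members were higher and 0 lower at 8 h, or 10.3% against 15.1% of all clusters. At 24 h 6 were higher and 0 lower, or 15.4% against 20.4%, and between 24 h and 8 h 1 was lower and 0 higher, or 2.56% against 10.4%. As in any RNA from whole cultures, fewer cells of a kind and less RNA per cell cannot be told apart in these values.

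Signals are log2 RMA values, and the number of arrays limits their precision. Mean signal per array lay between 7.97 and 8.14, and the lowest mean belonged to untreated replicate 2, with an upper quartile of 9.28, while those of untreated replicates 1 and 3 were 9.54 and 9.49. That array stood apart for the ABC genes too. It was the lowest of the untreated arrays for 14 of the 16 members at or above the median signal of all clusters, 8.08, and the highest for 15 of the 23 members below it. The median SD of a member was 0.108 in untreated cells, 0.065 after 8 h of SFN and 0.057 after 24 h. Of the 39 members, 13 had a mean below 6.69, the 25th percentile of all clusters. For 6 members, ABCA1, ABCB11, ABCC3, ABCC9, ABCG1 and ABCG2, the deposited value was equal on all 3 arrays of a group, which was so for 4.06% of all clusters. Equal values also recurred within and across groups for other members, bright ones among them. Over the 9 arrays ABCC5 had 6 distinct values, ABCC4, ABCC10 and ABCD3 had 7 each, and ABCA9 had 8. Why values recur is not given in the sources used here, and what this does to the SDs, p-values and overlaps was not tested.

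**Figure D1:**
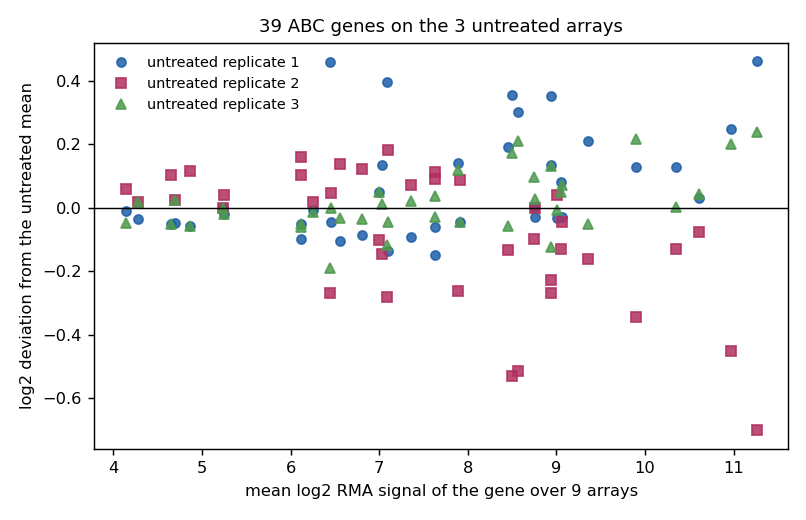
Deviation of each of the 39 ABC genes from its untreated mean on the 3 untreated arrays (vertical axis, log2), against the gene's mean log2 signal over all 9 arrays (horizontal axis). Squares, untreated replicate 2, are the highest point for 15 of the 23 genes below a signal of 8.08 and the lowest for 14 of the 16 genes above it.

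The B-cell label was checked against markers. On the 9 arrays the mean signal of 9 B-cell marker genes lay between 12.0 and 12.2. The mean of 10 T and NK cell markers lay between 6.49 and 6.78, that of 6 myeloid markers between 6.43 and 6.85, that of 9 epithelial and hepatic markers between 7.11 and 7.31, and that of 8 fibroblast markers between 6.72 and 6.92. At 8 h 0 of these genes were called. At 24 h the B-cell kinase gene BLK rose by 0.44 ± 0.08 (SE; adjusted p = 0.038) and VIM, the intermediate filament vimentin, fell by 0.43 ± 0.07 (adjusted p = 0.033). Their part in the ABC values was not tested.

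ABCA9 belongs to the ABCA6-like genes, a group of full-size transporters of one descent that lie side by side on chromosome 17 in the order ABCA8, ABCA9, ABCA6, ABCA10 and ABCA5, and whose substrates are poorly known. The ABCA9 signal was 6.74, 6.06 and 6.23 on the untreated arrays, 7.91, 7.57 and 7.87 after 8 h of SFN and 7.18, 7.10 and 7.10 after 24 h (cluster 3768703). Every SFN array lay above every untreated array, and the 8 h arrays lay above the 24 h arrays. The ABCA9 mean over all 9 arrays, 7.09, was below 8.08, the median of cluster means. ABCA9 averaged 7.79 ± 0.185 after 8 h and 6.34 ± 0.354 in untreated cells (SD, n = 3 each), a rise of 1.44 ± 0.17 (SE; 95% interval 1.05 to 1.83) or 2.72-fold (adjusted p = 0.017). After 24 h it averaged 7.13 ± 0.0413, which was 0.78 ± 0.17 above untreated cells, or 1.72-fold, and did not pass the test (adjusted p = 0.068). The 24 h signal was 0.66 ± 0.17 below that at 8 h, a difference of -0.66 that did not pass either (adjusted p = 0.22).

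The ABCA9 call at 8 h held under 16 of the 21 alternative settings that kept the gene, with rises of 1.30 to 1.64. Among the 21, counting pseudogene symbols refitted nothing, and averaging clusters of one symbol left the 1 ABCA9 cluster as it was. The call could hardly change in these settings (adjusted p = 0.017 in each). With untreated replicate 2 left out, the rise was 1.30 (adjusted p = 0.020). It was lost at a threshold of 0.01 and in a fit of only the 8 h and untreated arrays (adjusted p = 0.12). Leaving out untreated replicate 3 gave 1.38 (adjusted p = 0.095), leaving out the first 8 h array gave 1.38 (adjusted p = 0.089) and leaving out the third gave 1.40 (adjusted p = 0.076), so the call also ended in these fits.

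ABCA10, a neighbour of ABCA9, had signals of 6.37, 5.64 and 5.72 on the untreated arrays, 6.89, 6.67 and 6.98 after 8 h and 6.60, 6.55 and 6.56 after 24 h (cluster 3768880). The groups did not overlap in any of the comparisons, and the 8 h arrays were the highest. The ABCA10 mean over all 9 arrays, 6.44, was below 6.69, the 25th percentile of cluster means. The difference was 0.94 ± 0.18 at 8 h, or 1.91-fold (adjusted p = 0.067), and 0.66 ± 0.18 at 24 h, or 1.58-fold (adjusted p = 0.12), so that ABCA10 did not pass at either time. ABCA10 did pass at 8 h where arrays were quantile-normalised (adjusted p = 0.042) or centred on their medians (adjusted p = 0.043).

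ABCA5, a transporter of late endosomes and lysosomes at the end of the row, had 9.01, 8.43 and 8.54 on the untreated arrays, 9.12, 9.01 and 9.20 after 8 h and 9.06, 9.06 and 9.01 after 24 h (cluster 3768969). Untreated replicate 1 was as high as the SFN arrays, while the other untreated arrays were lower. The differences were 0.45 ± 0.14 at 8 h (adjusted p = 0.19) and 0.38 ± 0.14 at 24 h (adjusted p = 0.20). Untreated replicate 1 was also the highest untreated array for ABCA9 and ABCA10. Without it, ABCA5, ABCA9 and ABCA10 all passed at both times: at 8 h the rises were 0.62 (adjusted p = 0.021), 1.64 (adjusted p = 0.0054) and 1.17 (adjusted p = 0.0075), and at 24 h 0.56 (adjusted p = 0.027), 0.98 (adjusted p = 0.020) and 0.89 (adjusted p = 0.018). Without untreated replicate 2 instead, neither ABCA5 nor ABCA10 passed. ABCA5 then differed by 0.33 at 8 h and 0.27 at 24 h (adjusted p = 0.33 and 0.40) and ABCA10 by 0.80 and 0.52 (adjusted p = 0.10 and 0.24). Neither passed without untreated replicate 3. There ABCA5 differed by 0.39 and 0.32 (adjusted p = 0.43 and 0.32) and ABCA10 by 0.84 and 0.56 (adjusted p = 0.23 at both times).

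ABCA6, which lies between ABCA9 and ABCA10, had 8.62, 8.30 and 8.37 on the untreated arrays, 8.62, 8.45 and 8.65 after 8 h and 8.29, 8.34 and 8.41 after 24 h. The 8 h arrays overlapped the untreated ones and lay above the 24 h arrays, with differences of 0.14 ± 0.10 at 8 h (adjusted p = 0.52) and -0.22 ± 0.10 between 24 h and 8 h (adjusted p = 0.49). ABCA8, known to act in cholesterol efflux, ranged only from 4.23 to 4.37 over the 9 arrays, below the 25th percentile of cluster means. Of the 5 ABCA6-like genes, 1 passed at 8 h and 0 at 24 h, beside 0.595% and 1.62% of all clusters. An unadjusted p under 0.05 was found for 3 of the 5 at each of these times, beside 15.1% and 20.4% of all clusters. The list was chosen with earlier results of these data known, and its genes share the same untreated arrays. The 3 are therefore not separate support. The median difference of the 5 genes was 0.45 at 8 h, 0.38 at 24 h and -0.22 between 24 h and 8 h.

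**Figure D2:**
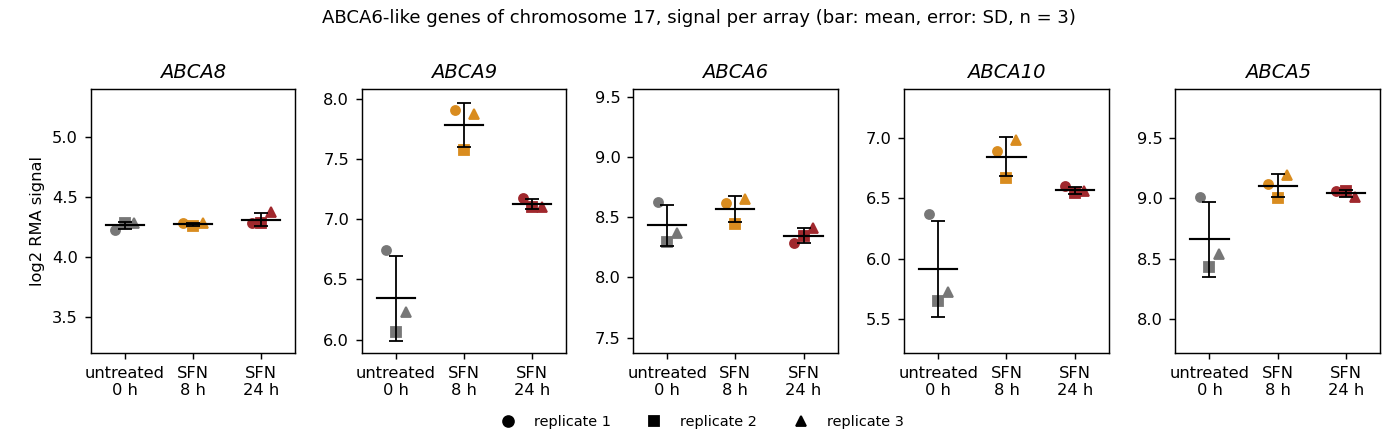
Log2 RMA signal of the 5 ABCA6-like genes on each array at 0 h (untreated), 8 h and 24 h of SFN; bars are means, error bars SD, n = 3, and panels span the same number of log2 units. ABCA9 and ABCA10 lie higher on every SFN array than on any untreated array, while ABCA8 keeps between 4.23 and 4.37.

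The promoters of 3 genes are shown because 1 of them, ABCA9, carried the only call and the other 2, ABCC2 and ABCC4, are conjugate pumps named as NRF2 targets elsewhere. Each sequence is the 250 bases before the annotated start in RefSeq on GRCh38.p14, read along the gene's strand. Capitals mark the letters TGACNNNGC, the core of the antioxidant response element that NRF2 binds, on either strand.
ABCA9, chr17:69060928-69061177, minus strand: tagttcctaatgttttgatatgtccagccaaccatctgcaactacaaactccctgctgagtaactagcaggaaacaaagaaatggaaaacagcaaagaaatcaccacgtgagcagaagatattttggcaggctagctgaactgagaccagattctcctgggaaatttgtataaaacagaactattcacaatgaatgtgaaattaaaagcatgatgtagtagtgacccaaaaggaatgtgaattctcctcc
ABCC2, chr10:99782390-99782639, plus strand: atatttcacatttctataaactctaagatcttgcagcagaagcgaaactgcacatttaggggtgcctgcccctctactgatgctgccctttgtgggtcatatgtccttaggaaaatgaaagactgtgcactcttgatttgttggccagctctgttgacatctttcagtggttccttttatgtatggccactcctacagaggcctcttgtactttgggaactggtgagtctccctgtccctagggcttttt
ABCC4, chr13:95301452-95301701, minus strand: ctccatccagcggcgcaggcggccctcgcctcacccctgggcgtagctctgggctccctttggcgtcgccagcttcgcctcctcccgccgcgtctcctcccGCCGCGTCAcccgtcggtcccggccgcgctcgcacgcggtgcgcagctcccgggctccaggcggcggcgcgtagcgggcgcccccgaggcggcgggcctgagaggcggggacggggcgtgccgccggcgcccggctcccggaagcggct
The ABCA9 stretch holds 39.2% G or C and 1 CG dinucleotide, that of ABCC2 45.6% and 1, and that of ABCC4 80.4% and 42. The motif was present in the ABCC4 stretch, on the opposite strand, with the leftmost of the capitals 149 bases before the start, and in neither of the others.

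Windows from 250 bases before to 50 after a start were at hand for 31 members. The 8 without a window were not searched: ABCA4, ABCA8, ABCB4, ABCB5, ABCC1, ABCC3, ABCC13 and ABCG1. At least 1 window with the motif was found for 9 of them, or 29.0%, against 16.1% of the 27305 genes with a window. By windows the figures were 9 of 46, or 19.6%, against 13.3% of 35116. The 9 members were ABCA2, ABCA3, ABCA5, ABCB9, ABCC4, ABCC10, ABCD4, ABCG2 and ABCG4, none of which was called. Among the ABCA6-like genes, the windows of ABCA9, ABCA6 and ABCA10 held no match, and the match of ABCA5 lay past the start. The ABCA5 window differed from those neighbours in composition, with 76.3% G or C and 45 CG dinucleotides, against 39.7% and 1 for the ABCA9 window. A match describes letters in a window and not binding.

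The comparison of most interest for a KEAP1-reactive compound is that of drug and conjugate efflux pumps. Of the 8 measured, ABCB1, ABCC1 to ABCC5, ABCC10 and ABCG2, 0 passed the test at 8 h, at 24 h or between those times. An unadjusted p under 0.05 was found for 1, 2 and 0 of them, beside 15.1%, 20.4% and 10.4% of all clusters. The median difference of the 8 pumps was 0.034 at 8 h and 0.13 at 24 h, where the medians of all clusters were -0.012 and 0.017. Without untreated replicate 2, the 8 h differences of ABCB1, ABCC5 and ABCC10 turned from above 0 to below, and that of ABCC3 from below to above. At 24 h, ABCB1, ABCC1, ABCC4, ABCC5 and ABCC10 then differed by less, at 0.11, 0.04, 0.05, 0.09 and 0.14. ABCC2 differed by 0.25, ABCC3 by 0.05 and ABCG2 by -0.06.

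ABCC2, the pump that sends glutathione and bilirubin conjugates into bile, was the member of subfamily ABCC with the smallest F-test p. It had 6.10, 6.13 and 6.10 on the untreated arrays, 6.27, 6.27 and 6.30 after 8 h and 6.46, 6.29 and 6.31 after 24 h (cluster 3260447). The SFN arrays lay above all untreated arrays, at signals below the 25th percentile of cluster means. The difference was 0.17 ± 0.06 at 8 h (95% interval 0.03 to 0.31; adjusted p = 0.24) and 0.25 ± 0.06 at 24 h (0.10 to 0.39; adjusted p = 0.098), neither of which passed.

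ABCC1, the first of the multidrug resistance proteins and an exporter of glutathione conjugates and leukotriene C4, had 10.57, 10.47 and 10.58 on the untreated arrays, 10.75, 10.48 and 10.73 after 8 h and 10.58, 10.66 and 10.62 after 24 h. The groups overlapped at 8 h and were apart by little at 24 h. The differences were 0.11 ± 0.08 (95% interval -0.08 to 0.30; adjusted p = 0.54) and 0.08 ± 0.08 (-0.11 to 0.27; adjusted p = 0.57). The 24 h difference was -0.02 after quantile normalisation and 0.04 without untreated replicate 2.

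ABCC3, a pump for glucuronides and bile salts, had 7.00, 7.32 and 7.09 on the untreated arrays, 7.07, 7.09 and 7.09 after 8 h and 7.09 on all 3 arrays after 24 h. The untreated arrays enclosed the others, with a difference of -0.05 ± 0.08 at 8 h (adjusted p = 0.77). ABCC4, an exporter of cyclic nucleotides and prostaglandins, had 10.48, 10.22 and 10.35 on the untreated arrays, 10.38, 9.98 and 10.38 after 8 h and 10.38, 10.48 and 10.53 after 24 h. Its groups overlapped, with differences of -0.10 (95% interval -0.38 to 0.17; adjusted p = 0.69) and 0.11 (-0.17 to 0.39; adjusted p = 0.59).

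ABCC5, which exports cyclic GMP and nucleotide analogues, had 7.93, 7.53 and 7.91 on the untreated arrays, 7.91, 7.91 and 7.77 after 8 h and 8.12, 7.91 and 7.99 after 24 h. The low untreated value was that of replicate 2, and the 24 h difference was 0.22 ± 0.12 (adjusted p = 0.31), or 0.09 without that array. ABCC10, a pump for taxanes and other natural product drugs, had 9.05, 8.84 and 9.02 on the untreated arrays, 9.05, 9.05 and 8.97 after 8 h and 9.26, 9.14 and 9.11 after 24 h. The 24 h arrays lay above all untreated ones by 0.20 ± 0.08 on average (adjusted p = 0.21).

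ABCB1, the multidrug pump P-glycoprotein, had 6.99, 6.83 and 6.99 on the untreated arrays, 6.99, 7.01 and 6.86 after 8 h and 7.21, 6.98 and 7.09 after 24 h. The 8 h arrays overlapped the untreated ones, at a difference of 0.02 (95% interval -0.17 to 0.20; adjusted p = 0.93), and the 24 h difference was 0.16 ± 0.08 (-0.03 to 0.35; adjusted p = 0.30). ABCG2, the breast cancer resistance protein, had 4.87, 5.04 and 4.87 on the untreated arrays, 4.87 on all 3 arrays after 8 h and 4.81, 4.87 and 4.73 after 24 h. These signals lie below the 25th percentile of cluster means, and the differences were -0.06 (95% interval -0.21 to 0.10; adjusted p = 0.70) and -0.12 (-0.28 to 0.04; adjusted p = 0.33).

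**Figure D3:**
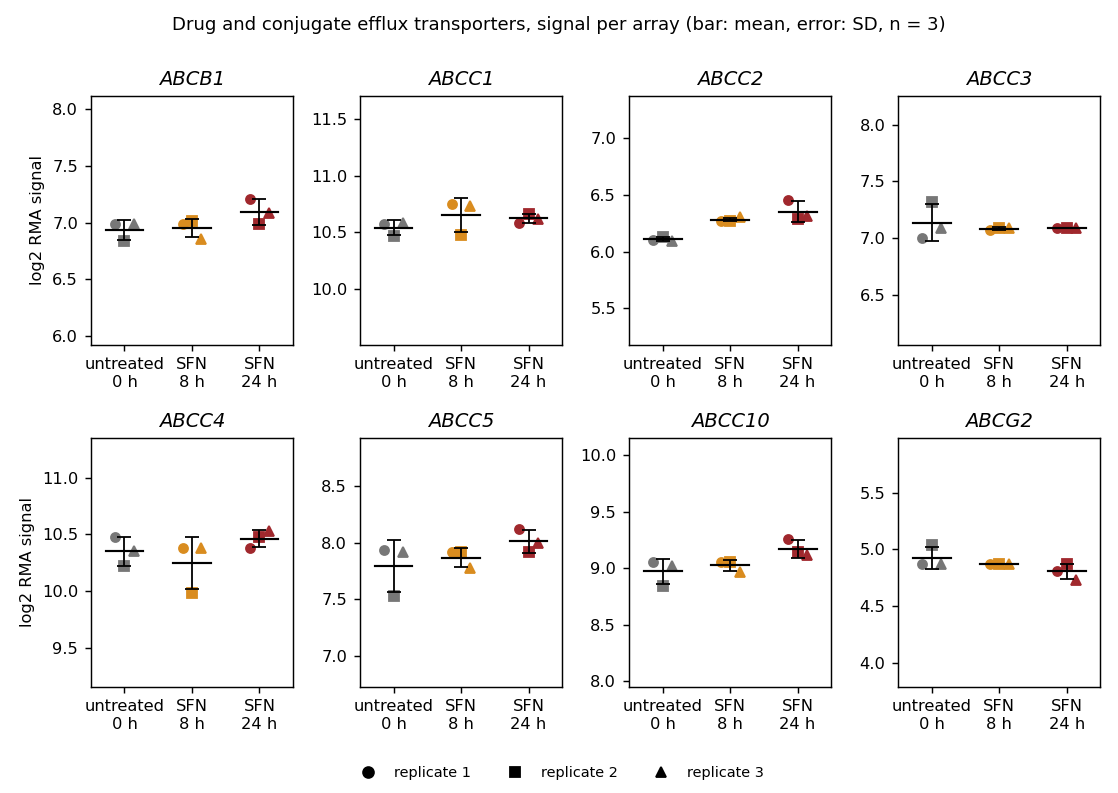
Log2 RMA signal of the 8 drug and conjugate efflux genes on each array at 0 h (untreated), 8 h and 24 h of SFN; bars are means, error bars SD, n = 3, and panels span the same number of log2 units. The ABCC2 arrays step up by 0.17 and 0.25 on average, and the other groups overlap at 8 h.

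Enzymes that make and attach glutathione, the supply side of ABCC efflux, did include called genes. Of 15 measured genes of that list, 2 rose at 24 h, when 1.62% of all clusters were called, and 0 were called at 8 h or between the times. An unadjusted p under 0.05, in either direction, was found for 5, 5 and 4 of the 15 at 8 h, at 24 h and between those times. The shares of all clusters were 15.1%, 20.4% and 10.4%. GCLC, whose product makes the peptide bond between glutamate and cysteine that begins glutathione, rose by 0.94 ± 0.18 (adjusted p = 0.047). MGST1, a membrane-bound glutathione transferase, rose by 0.58 ± 0.10 (adjusted p = 0.041). At 8 h GCLC differed by 0.77 ± 0.18 (adjusted p = 0.10) and SLC7A11, of the same list, by 1.07 ± 0.23 (adjusted p = 0.080). Neither passed, and the list median at 8 h was 0.029. The untreated arrays had 8.22, 7.58 and 8.08 for GCLC and 9.88, 9.49 and 9.68 for MGST1, with replicate 2 the lowest. Whether these 2 calls hold without that array was not examined. Over the same 24 h ABCC1, ABCC2, ABCC3 and ABCC4 differed by 0.08, 0.25, -0.05 and 0.11, with none called; whether the pumps and the enzymes differ in response was not tested.

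Among lipid carriers, 0 of 12 passed in any comparison, and 0, 1 and 0 had an unadjusted p under 0.05 at 8 h, at 24 h and between those times. The shares of all clusters were 15.1%, 20.4% and 10.4%. ABCA1, which loads cholesterol onto apolipoprotein A-I, had 6.10, 6.26 and 6.10 on the untreated arrays and 6.10 on all 6 SFN arrays. ABCG1, which passes cholesterol on to HDL, had 7.35, 7.51 and 7.46 on the untreated arrays, 7.29, 7.30 and 7.32 after 8 h and 7.35 on all 3 arrays after 24 h. The 8 h arrays of ABCG1 lay below all untreated arrays, at a difference of -0.13 ± 0.06 that did not pass (adjusted p = 0.33), and the 24 h difference was -0.09 ± 0.06 (adjusted p = 0.37).

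ABCA7, a phospholipid carrier tied to phagocytosis, had 8.97, 9.05 and 9.00 on the untreated arrays, 9.04, 8.92 and 9.05 after 8 h and 8.95, 9.03 and 9.09 after 24 h, so that all groups overlapped. ABCA12, the ceramide carrier of skin whose loss causes harlequin ichthyosis, had 10.97, 10.27 and 10.92 on the untreated arrays, 10.97, 10.94 and 10.90 after 8 h and 11.57, 10.98 and 11.20 after 24 h. Its 24 h arrays lay above all untreated ones by 0.53 ± 0.21 on average, with untreated replicate 2 far below its group (adjusted p = 0.21); without that array the difference was 0.30 (adjusted p = 0.41). ABCA3, which loads surfactant lipids into lamellar bodies in the lung, differed by -0.11 ± 0.07 at 8 h without overlap (adjusted p = 0.48) and by 0.01 at 24 h. ABCG4, a cholesterol carrier of the brain, had 7.57, 7.83 and 7.75 on the untreated arrays, 7.60, 7.58 and 7.63 after 8 h and 7.52, 7.62 and 7.57 after 24 h, with differences of -0.11 ± 0.08 (adjusted p = 0.50) and -0.14 ± 0.08 (adjusted p = 0.31).

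The other lipid and bile carriers of this list were ABCA2, ABCA4, ABCB4, ABCB11, ABCG5 and ABCG8. At 8 h their differences lay between -0.13 for ABCB4, the phosphatidylcholine floppase of bile, and 0.01 for ABCB11, the bile salt pump. At 24 h they lay between -0.15 for ABCG8, which with ABCG5 exports plant sterols, and -0.03 for ABCA2, a lipid carrier of late endosomes in brain. None of these passed. ABCA13, a lipid carrier outside the list, differed by less than 0.01 at 8 h and by -0.04 at 24 h. Of the 9 measured partners and regulators of sterol efflux, 0 were called in each comparison, and 3, 1 and 2 had an unadjusted p under 0.05 at 8 h, at 24 h and between those times. For all clusters the shares were 15.1%, 20.4% and 10.4%.

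ABCB8 and ABCB10, transporters of the inner mitochondrial membrane, did not pass. ABCB8, tied to mitochondrial iron export, had 9.06, 9.04 and 9.16 on the untreated arrays, 9.07, 9.05 and 9.06 after 8 h and 9.02, 9.06 and 9.06 after 24 h, a span of little more than the untreated spread. ABCB10, which acts in haem synthesis, had 8.73, 7.92 and 8.64 on the untreated arrays, 8.64, 8.51 and 8.64 after 8 h and 8.80, 8.56 and 8.67 after 24 h. Its differences of 0.17 ± 0.20 and 0.25 ± 0.20 became -0.09 and -0.01 without untreated replicate 2. Of 10 genes for mitochondrial iron-sulphur and haem work, 0 were called, while 1, 7 and 3 had an unadjusted p under 0.05 at 8 h, at 24 h and between those times. Of all clusters, 15.1%, 20.4% and 10.4% had such a p. FECH, the last enzyme of haem synthesis, differed by 0.34 ± 0.08 at 24 h (adjusted p = 0.092) and ISCU, the scaffold for iron-sulphur clusters, by 0.39 ± 0.11 (adjusted p = 0.12).

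The ABCD genes did not pass either. ABCD2, a peroxisomal carrier of very long chain and polyunsaturated acyl-CoA, had 9.57, 9.20 and 9.31 on the untreated arrays, 9.34, 9.01 and 9.30 after 8 h and 9.44, 9.49 and 9.50 after 24 h. The 24 h arrays lay above the 8 h arrays by 0.26 ± 0.12 (adjusted p = 0.50) but within the untreated range. ABCD3, the peroxisomal carrier of branched-chain acids and bile acid precursors, differed by 0.36 ± 0.22 at 24 h (adjusted p = 0.37), or by 0.09 without untreated replicate 2. ABCD4, which acts in lysosomal export of vitamin B12, differed by 0.17 ± 0.08 at 8 h and 0.12 ± 0.08 at 24 h (adjusted p = 0.37 and 0.40). Of 11 peroxisome genes 0 were called in any comparison, and 0, 2 and 1 had an unadjusted p under 0.05. That p was reached by 15.1%, 20.4% and 10.4% of all clusters.

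ABCE1, which splits ribosomes after termination, had 11.62, 10.46 and 11.40 on the untreated arrays, 11.25, 11.04 and 11.09 after 8 h and 11.78, 11.31 and 11.41 after 24 h. The 24 h arrays lay above the 8 h arrays, while the untreated arrays lay both below and above the 8 h group and overlapped the 24 h group. The difference was -0.04 ± 0.28 at 8 h (adjusted p = 0.96) and 0.33 ± 0.28 at 24 h (95% interval -0.30 to 0.97, adjusted p = 0.48). The 24 h difference became -0.02 without untreated replicate 2. ABCF2, an ABCF protein, which like the others of that subfamily has no membrane-spanning part, had 10.01, 9.54 and 10.10 on the untreated arrays, 9.93, 9.69 and 9.81 after 8 h and 9.95, 9.91 and 10.12 after 24 h. ABCF3, an ABCF protein tied to antiviral defence in mice, had 8.96, 8.56 and 8.96 on the untreated arrays, 9.01, 8.88 and 8.96 after 8 h and 9.08, 8.96 and 9.06 after 24 h. For both the untreated arrays other than replicate 2 lay among the SFN arrays, and with all arrays the 24 h differences were 0.11 ± 0.15 and 0.21 ± 0.11 (adjusted p = 0.66 and 0.31). Of 12 ribosome recycling and initiation genes 0 were called, and 2, 3 and 0 had an unadjusted p under 0.05 at 8 h, at 24 h and between those times. The shares over all clusters were 15.1%, 20.4% and 10.4%.

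Peptide transporters gave no calls. ABCB9, the lysosomal peptide carrier, differed by -0.12 ± 0.08 at 8 h and -0.02 at 24 h (adjusted p = 0.49 and 0.86). TAP1 and TAP2, the ABC proteins that feed peptides to MHC class I, are ABC genes under other symbols; TAP1 differed by -0.08 ± 0.09 and 0.18 ± 0.09 and TAP2 by -0.08 ± 0.12 and less than 0.01, with none passing. Of 9 peptide-loading genes 0 were called, and 1, 0 and 0 had an unadjusted p under 0.05, beside 15.1%, 20.4% and 10.4% of all clusters. ABCC9, the sulphonylurea receptor of some potassium channels, differed by 0.02 and 0.04, and ABCC12, ABCC13 and ABCB5 by -0.12, -0.08 and -0.06 at 8 h and by -0.10, -0.03 and -0.02 at 24 h.

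**Figure D4:**
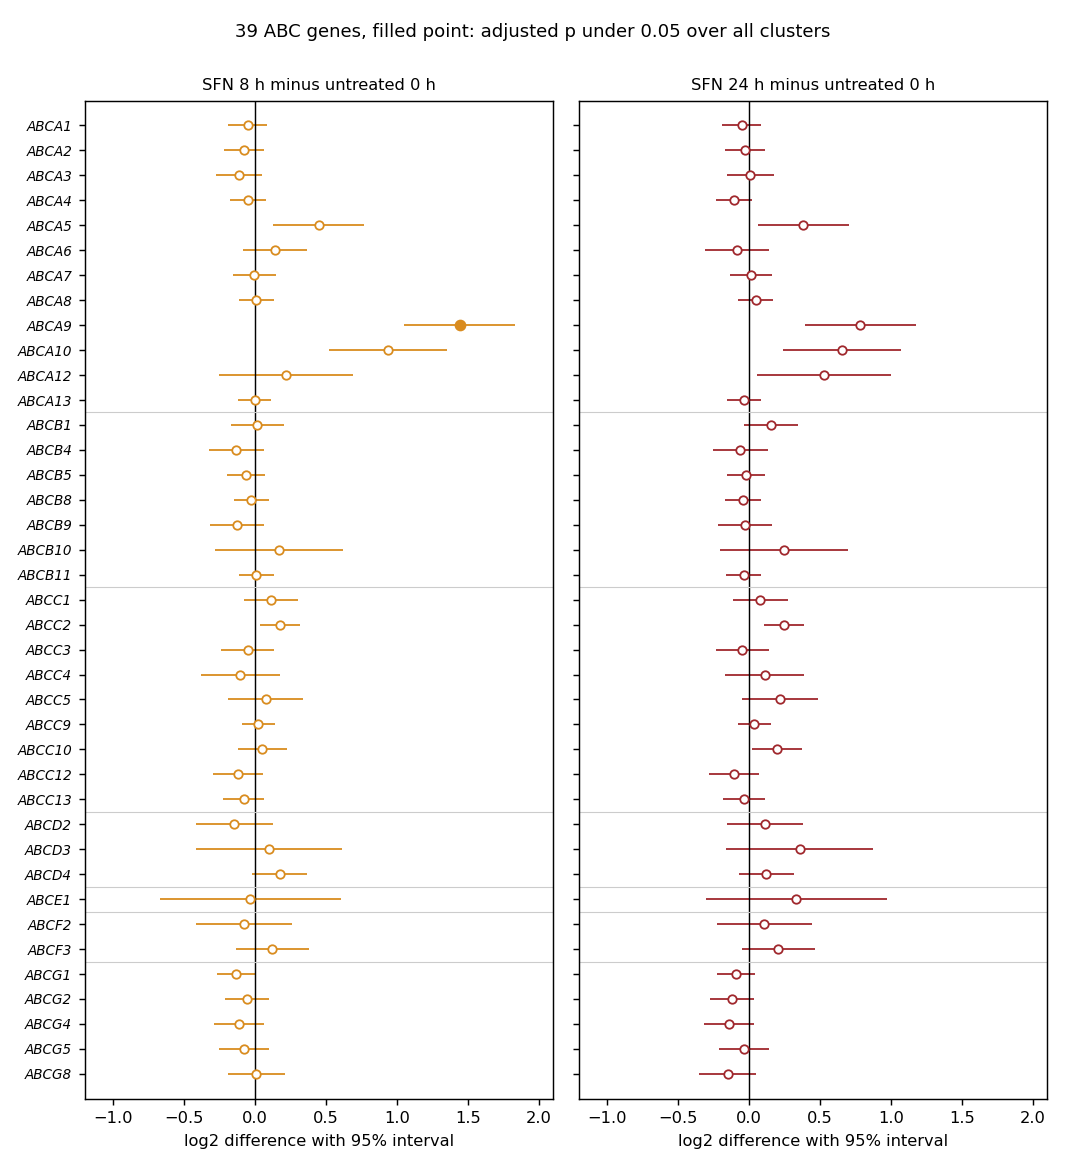
Log2 difference with its 95% interval for all 39 ABC genes, SFN 8 h minus untreated on the left and SFN 24 h minus untreated on the right; genes run down the page by subfamily. The filled point, ABCA9 at 8 h with 1.44, is the gene with an adjusted p under 0.05; the intervals of 32 of the 39 genes stay within 1.5-fold either way at each time.

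How large a change in signal the data leave room for can be read from the intervals. For dim members or those with recurring equal values, a narrow interval need not bound the change in RNA. ABCA1, ABCB11, ABCC9 and ABCG2, all below the 25th percentile of cluster means and with 3 or 4 distinct values over the 9 arrays, are such members. At 8 h and again at 24 h, the 95% interval of the difference lay within 1.5-fold either way for 32 of the 39 members, or 82.1%, against 75.4% of all clusters at 8 h and 71.1% at 24 h. The 7 whose interval reached further were ABCA5, ABCA9, ABCA10, ABCA12, ABCB10, ABCD3 and ABCE1 at both times. For all 7, untreated replicate 2 was the lowest untreated array. Between 24 h and 8 h the interval lay within 1.5-fold for 34 members.

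The arrays of the 2 groups did not overlap for 5 members at 8 h, or 12.8%, against 17.6% of all clusters. ABCA9, ABCA10 and ABCC2 were higher and ABCA3 and ABCG1 lower. At 24 h the arrays did not overlap for 6 members, all higher, or 15.4% against 24.3%. They were ABCA9, ABCA10, ABCA12, ABCC1, ABCC2 and ABCC10. Between 24 h and 8 h it was 9 members, or 23.1% against 21.6%, with ABCA3, ABCA12, ABCC10, ABCD2, ABCE1 and ABCG1 higher at 24 h and ABCA6, ABCA9 and ABCA10 lower. These shares are near or below the background.

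Compared by subfamily, the median differences were small. Over all 39 members the median was -0.0048 at 8 h and 0.016 at 24 h, beside -0.012 and 0.017 for all clusters, with 18 members higher and 21 lower at 8 h and 21 higher and 18 lower at 24 h. Between 24 h and 8 h the median was 0.042, beside 0.024 for all clusters. Subfamily values are descriptions with no test, and both SFN comparisons share the untreated arrays.

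The ABCA median was 0.0038 at 8 h and 0.013 at 24 h, with single genes from -0.11 to 1.44 at 8 h. ABCB had -0.025 at both times. ABCC had 0.024 at 8 h and 0.081 at 24 h, with 6 of 9 genes higher at 24 h, and after quantile normalisation these medians were -0.036 and -0.019. ABCD had 0.099 and 0.12, with 3 of 3 genes higher at 24 h, though ABCD2 became -0.01 after quantile normalisation and the medians without untreated replicate 2 were -0.17 and 0.074. ABCE1 alone gave -0.035 and 0.33. The 2 ABCF genes had a median of 0.023 at 8 h and 0.16 at 24 h, both higher at 24 h, with ABCF2 at -0.01 after quantile normalisation. Without untreated replicate 2 the ABCF medians were -0.13 and 0.0047, with ABCF2 at -0.06 and ABCF3 at 0.07 at 24 h. ABCG had -0.080 and -0.12, with 4 of 5 genes lower at 8 h and 5 of 5 at 24 h, and the 5 were below 0 at 24 h also after quantile normalisation and centring. Without untreated replicate 2 the ABCG medians were -0.011 and -0.063, and ABCG5 was at 0.03 at 24 h. ABCG5 and ABCG8 differed by -0.03 ± 0.08 and -0.15 ± 0.09 at 24 h, and 0 of the 5 ABCG genes passed the test. Between 24 h and 8 h the medians were -0.016 for ABCA, 0.072 for ABCB, 0.047 for ABCC, 0.26 for ABCD, 0.37 for ABCE1, 0.14 for ABCF and -0.029 for ABCG. No subfamily held a called gene other than ABCA with ABCA9.

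**Figure D5:**
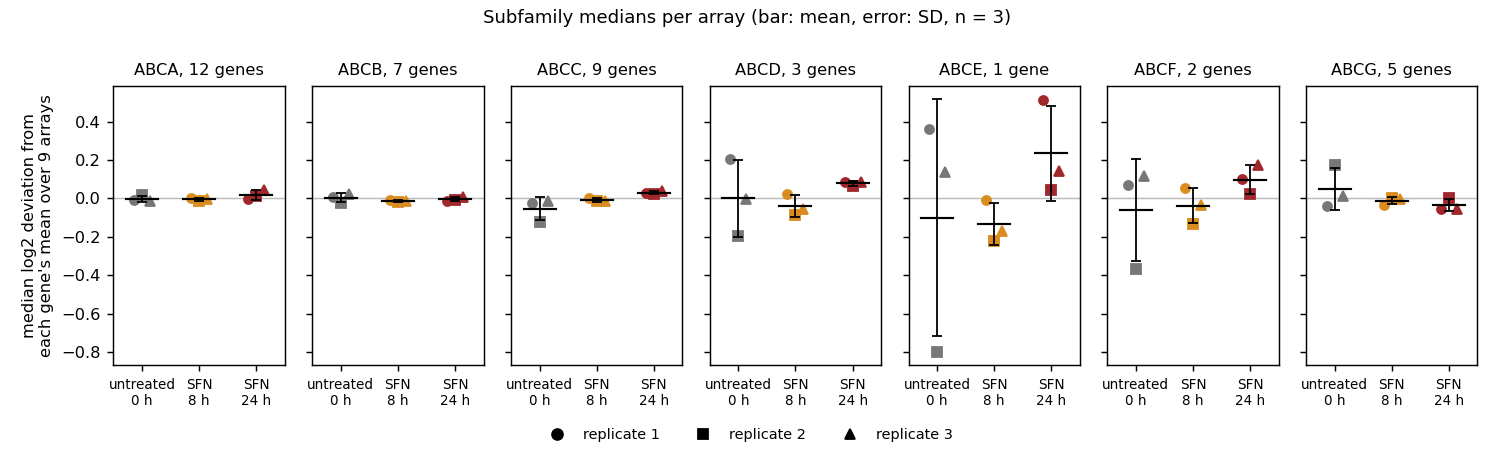
Median log2 deviation of each subfamily's genes from their own means over 9 arrays, per array, at 0 h (untreated), 8 h and 24 h of SFN; bars are means, error bars SD, n = 3. Untreated replicate 2 (squares) lies lowest for ABCB, ABCC, ABCD, ABCE and ABCF and highest for ABCG.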

How the data were processed

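Total RNA of the 9 cultures was measured on exon arrays, 1 array per culture. The deposited values are log2 signals, 1 per transcript cluster and array; the authors summarised probes with gene-level RMA and sketch-quantile normalisation in Affymetrix Expression Console, per the labels and the series' design text. The sources used here give no version, annotation release or genome build for that processing. Gene names came from the platform's annotation table, where 14432 clusters had 1 symbol, 2408 several and 5171 none.

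Groups were taken from the sample titles. The values were fitted as deposited with limma 3.58.1 in R 4.3.3, with 1 mean per group and eBayes over all 9 arrays. Tests were two-sided, with Benjamini-Hochberg adjustment in each comparison over the 22011 clusters, among which control clusters are not marked. The workflow was tested on simulated data. The members, gene lists and tests were chosen with earlier results of these data known. Per-array values are given for called members, for the ABCA6-like genes and a panel of efflux, lipid and ribosome genes, and for the members of each subfamily with the smallest F-test p and the highest mean; up to 3 genes of each partner list are named, by p. Equal replicate numbers were not taken to pair the cultures in the main fit. Deviations from the group means correlated between -0.137 and 0.394 for same-numbered arrays, and not every pair was above 0.1. Differently numbered arrays were not compared, so these values do not settle whether the cultures were paired. Alternatives were a replicate block, filters on dim clusters, quantile normalisation, centring, trended and robust eBayes and array weights. Further alternatives were averaging of clusters with one symbol, counting pseudogene symbols as members, a threshold of 0.01, fits of 2 groups and leaving out each array. A fit without clusters whose 3 arrays of some group were equal, and weights fitted gene by gene, were added after seeing the data.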

Additional observations from a re-analysis of the deposited data

How the results depend on the processing

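Arrays give no counts, so the number of arrays limits the precision; no measure of signal over background was used here, and 13 members had means in the lowest 25% of clusters. Single-gene differences mostly kept their side of the threshold and, where not called, moved by less than 1 SD between replicates. This held in 786 of 816 settings and genes at 8 h, 769 of 816 at 24 h and 806 of 816 between 24 h and 8 h. Of the called values 0 changed sign. Many settings cannot move the difference itself, so much of each count was fixed in advance. They include the replicate block, robust eBayes, averaging of clusters, counting of pseudogene symbols, the 0.01 threshold and fits of 2 groups. Leaving out an array also keeps the difference of any comparison that does not use its group. The number of called members at 24 h was 1 with a replicate block, which changed no other call, 1 without the lowest 25% of clusters and 1 after centring, each time ABCA9. At 8 h it was 2 after quantile normalisation or centring, with ABCA10 added, and 0 without clusters below the median, which drops ABCA9, at a threshold of 0.01 and in the fit of 2 groups. The F-test gave 0 without clusters below the median and at 0.01. Array weights gave 12 calls at 8 h, 12 at 24 h, 1 between 24 h and 8 h and 13 in the F-test, but that fit stopped without converging and put a weight of 29.8 on untreated replicate 3. Weights fitted gene by gene gave 3, 3, 1 and 4. The share of all clusters called was worked out for the main fit alone. The counts in other settings therefore do not show how the family stands beside other clusters.

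Subfamily medians near 0 moved with the setting; causes were not tested beyond the fewer genes that filters leave. Without the lowest 25% of clusters the family median was 0.11 at 24 h and 0.076 between 24 h and 8 h, ABCA had 0.14 at 8 h and 0.021 between 24 h and 8 h, and ABCC 0.14 between them. Without clusters below the median the family had 0.076 at 8 h, 0.12 at 24 h and 0.10 between them, ABCA 0.14 and 0.021 as before, ABCB 0.070, 0.10 and 0.032, and ABCC 0.15 between 24 h and 8 h. Quantile normalisation gave the family -0.058, -0.052 and 0.017 at 8 h, 24 h and between them, ABCA -0.051, -0.072 and -0.041, ABCB -0.076, -0.070 and 0.033, and ABCC -0.036 and -0.019 at 8 h and 24 h. Centring gave the family -0.027, -0.047 and 0.0011, ABCA -0.019, -0.050 and -0.057, ABCB -0.048, -0.088 and 0.031, and ABCC 0.018 at 24 h and 0.0069 between 24 h and 8 h. Array weights gave 0.038 for ABCA, 0.016 for ABCB and 0.041 for ABCC at 24 h and 0.030 for ABCB between 24 h and 8 h. Weights fitted gene by gene gave at 24 h 0.032 for the family, 0.051 for ABCA and 0.00058 for ABCB, 0.035 for ABCB between 24 h and 8 h, and -0.066 for ABCD at 8 h. Without clusters of 3 equal arrays the family had 0.081 at 24 h and ABCB -0.045 at 8 h.

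Leaving out each array in turn gave 0 to 3 calls at 8 h, 0 to 3 at 24 h, 0 between them and 0 to 3 in the F-test. The counts of 3 came without untreated replicate 1. Shares of all clusters called in these fits were not worked out either. The 8 h count was 0 without untreated replicate 3 and without replicate 1 or 3 of the 8 h group, and the F-test count was 0 in the same fits and without any 24 h array. The family median ran from -0.024 to 0.0099 at 8 h and from -0.0085 to 0.030 at 24 h. ABCA ran from -0.010 to 0.028 at 8 h and from -0.018 to 0.042 at 24 h. ABCB ran from -0.048 to 0.0099 at 8 h, from -0.043 to -0.0011 at 24 h and from 0.024 to 0.10 between 24 h and 8 h. ABCC ran from -0.012 to 0.035 at 8 h and from 0.047 to 0.10 at 24 h. ABCD ran from -0.17 to 0.19 at 8 h and from 0.11 to 0.30 between 24 h and 8 h. ABCF ran from -0.13 to 0.11 at 8 h and from 0.0047 to 0.25 at 24 h, and ABCG from -0.13 to -0.011 at 8 h and from -0.15 to -0.063 at 24 h. Without untreated replicate 2, ABCA9 remained the 1 called member at 8 h and 0 were called at 24 h, while 10 uncalled members changed sign at 8 h and 9 at 24 h.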
